A study of Mus musculus with 2 samples.

Results

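The collagens and their crosslinkers were examined in 4T1 cells, a mouse mammary carcinoma line that spreads to the lung, after 48 h with PBS or with potassium oxalate. The genes were chosen by a rule on symbols that uses no measured value, although earlier results of these data were known by then. The rule took every protein-coding gene whose symbol begins as a collagen chain does (Col, a number, a, a number). It also took the lysyl oxidases Lox and Loxl1 to Loxl4, and Fn1, Sparc and Tnc. This gave 53 of the 21911 genes listed, of which 52 encode a matrix protein or crosslinker, 44 of them collagen chains. The remaining gene, Col4a3bp, shares only the letters of its name with the collagens and encodes a ceramide transfer protein. RNA was sequenced in 2 libraries, 1 per condition, both from the same cell line in culture, and the labels name no other cells in it. The labels give the oxalate dose as 20 µM in one field and as 20 mM in another, and the study's methods give the lower of these. The values are FPKM, fragment numbers divided by transcript length and by the size of the library, which are per length. Levels of different genes are set side by side on this scale, with the limit that the order depends on the transcript length used, as given below for the chains concerned. With 1 library per condition no difference has a replicate check, and no test between the conditions was possible.

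Collagens are secreted chains that wind into a rope-like helix, which requires a glycine at a fixed spacing along the chain. Fibrillar collagens such as types I, III and V form the cables of connective tissue, type IV forms the sheet of the basement membrane under epithelia, and type VI forms beaded filaments around cells. Lysyl oxidases crosslink the finished fibres, fibronectin (Fn1) provides the scaffold on which cells and collagen are laid down, Sparc binds collagen and assists its deposition, and tenascin-C (Tnc) modulates adhesion to the matrix. In tumours most fibrillar collagen is commonly made by fibroblasts, and carcinoma cells grown alone show which matrix genes they express by themselves.

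The helix leaves a mark in the coding sequence: a glycine codon, GGN, at every 3rd codon. In the longest coding sequence of GENCODE M21 (GRCm38), all 44 collagen chains held an unbroken run of at least 23 such codons, with a median of 58.5 and a longest run of 344 in Col3a1. The 9 other genes, Col4a3bp among them, had at most 4 in a row. The first 54 bases of the longest run are shown for 3 chains to which the results return, and for Col4a3bp, with the glycine codons of the repeat in capitals. They begin at codon 168 of Col1a1 (chromosome 11), codon 97 of Col1a2 (chromosome 6), codon 43 of Col4a1 (chromosome 8) and codon 64 of Col4a3bp (chromosome 13).
Col1a1: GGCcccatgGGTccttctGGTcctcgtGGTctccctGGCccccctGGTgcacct
Col1a2: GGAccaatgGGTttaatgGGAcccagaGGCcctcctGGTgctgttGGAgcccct
Col4a1: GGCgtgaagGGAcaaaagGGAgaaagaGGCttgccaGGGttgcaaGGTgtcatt
Col4a3bp: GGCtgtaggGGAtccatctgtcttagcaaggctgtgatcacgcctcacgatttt
The collagen stretches hold a glycine codon at the start of every repeat of 3 codons, whereas the Col4a3bp stretch loses it after 2. Col4a3bp is therefore left out of the counts that follow. It had 25.8 FPKM with PBS and 23.8 FPKM with oxalate.

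The identity of the cells was checked on marker genes. Of 7 epithelial markers, 6 (Krt8, Krt18, Krt19, Cdh1, Epcam and Krt14) had between 71.1 and 429 FPKM in both libraries, and Krt5 was listed at 0 with PBS and 0.03 FPKM with oxalate. Of 9 fibroblast markers, Thy1, Fap, Lum and Tcf21 were listed at 0 in both libraries. S100a4 had 535 FPKM with PBS and 476 with oxalate, and Pdgfra had 1.88 and 1.93. The fibroblast list without S100a4 summed to 2.56 FPKM with PBS and 2.46 with oxalate. All 5 endothelial markers together summed to 0.08 and 0.11 FPKM. Among the leukocyte markers, Cd68 had 7.79 FPKM with PBS and 7.11 with oxalate, and Ptprc, Adgre1, Itgam and Cd3e were at 0 in both. Most fibroblast, endothelial and leukocyte markers were thus at or near 0, with S100a4, Pdgfra and Cd68 as the exceptions at 1 FPKM or more. Whether these 3 transcripts came from the carcinoma cells or from other cells was not tested.

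Of the 52 matrix genes, 13 reached 1 FPKM in the PBS library, and 13 did so in the oxalate library. That is 25% of them, against 46.9% and 46.8% of all genes listed. The 13 spanned a 273-fold range with PBS and were headed by Fn1, Col4a1 and Col1a1, which together held 67.3% of the summed FPKM of the 52 genes with PBS and 68.3% with oxalate. Of the others, 22 lay above 0 and below 1 FPKM with PBS and 17 were listed at 0. In the oxalate library these numbers were 18 and 21. The whole group summed to 1152 FPKM with PBS and 1245 with oxalate, 0.203% and 0.223% of all FPKM.

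**Figure D1:**
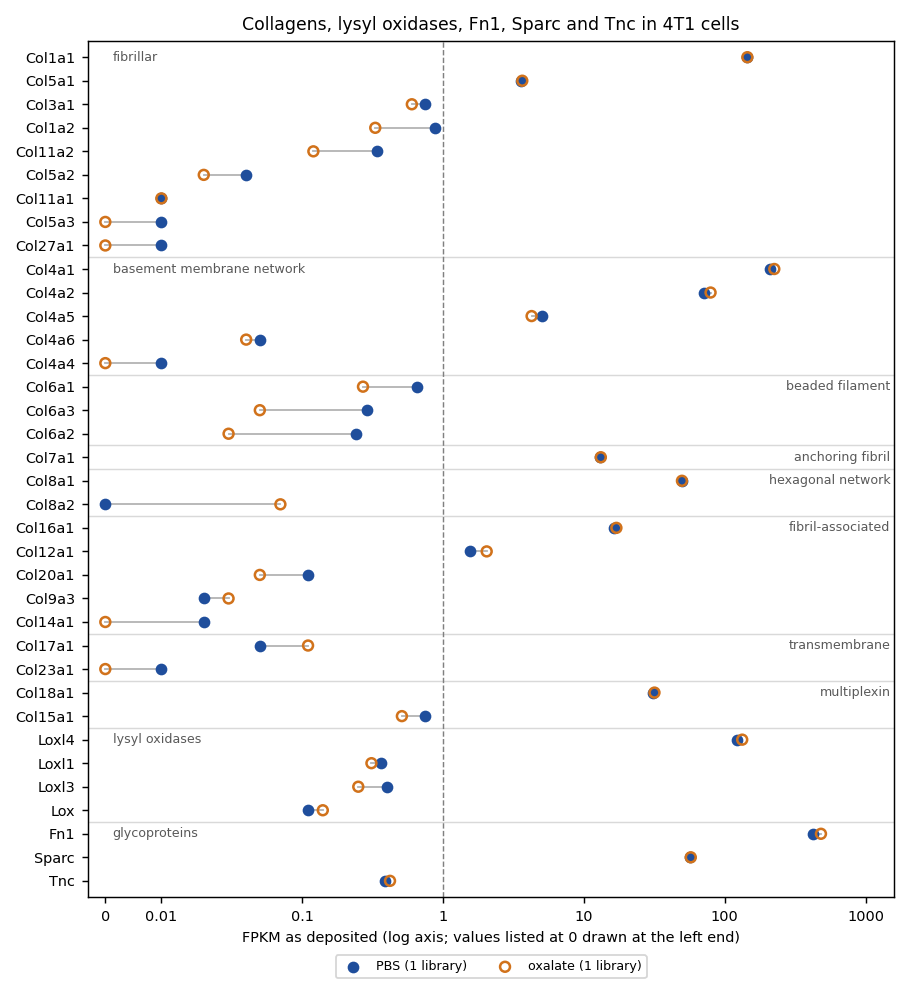
FPKM of the 36 matrix genes listed above 0 in at least 1 library (log axis, grouped by class), with PBS as filled points and oxalate as open points, 1 library each. The highest genes, such as Fn1 and Col4a1, lay close together in the 2 libraries, whereas Col6a1, Col6a2 and Col6a3 lay apart at low FPKM.

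The glycoproteins came first. Fn1 (ENSMUSG00000026193, chromosome 1, 71585520 to 71653200) had 423 FPKM with PBS and 482 with oxalate, at percentile 98.8 and 99.0 of the genes above 0. Sparc (chromosome 11, 55394500 to 55423183) had 56.3 and 57.3 FPKM. Tnc was low, at 0.39 and 0.42 FPKM.

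Among the fibrillar collagens the levels were uneven. Col1a1 (ENSMUSG00000001506, chromosome 11, 94936224 to 94953042), the major chain of type I collagen, had 143 FPKM with PBS and 145 with oxalate. Its usual partner chain Col1a2 (ENSMUSG00000029661, chromosome 6, 4504814 to 4541544) had 0.88 and 0.33 FPKM. The ratio of Col1a1 to Col1a2 was 163 with PBS and 438 with oxalate. The ratio with oxalate is imprecise, since Col1a2 rests there on an estimated 37 reads. In tissues that make type I collagen, both chains enter the common form of the molecule, and a form made of Col1a1 chains alone is known. Col5a1, a chain of the type V collagen that starts fibrils, had 3.6 and 3.65 FPKM, far above its partner Col5a2, which had 0.04 and 0.02 FPKM. The ratio was 90 with PBS, and 50.6 on the longest coding transcripts. Since Col5a2 rests on an estimated 15 and 5 reads, this ratio is imprecise, and that of the oxalate library is not given. Col3a1, the chain of reticular fibres, had 0.75 and 0.6 FPKM. Of the 11 fibrillar chains only Col1a1 and Col5a1 reached 1 FPKM, and Col2a1, the cartilage chain, and Col24a1 were listed at 0 in both libraries.

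The basement membrane chains Col4a1 and Col4a2, which combine in the widespread form of type IV collagen, were both high. Col4a1 (ENSMUSG00000031502, chromosome 8, 11198423 to 11312826, minus strand) had 209 FPKM with PBS and 225 with oxalate. Col4a2 (ENSMUSG00000031503, chromosome 8, 11312805 to 11449287, plus strand) had 71.6 and 79.3. The genes point away from each other, with annotated starts 21 bases apart. Another divergent pair, Col4a5 and Col4a6 on chromosome X, starts 1309 bases apart, and its levels were far from each other. Col4a5 had 5.04 FPKM with PBS and 4.25 with oxalate, and Col4a6 had 0.05 and 0.04. Col4a3 and Col4a4 on chromosome 1 also point away from each other, with annotated starts at 82586921 and 82586849. Col4a3 was listed at 0 in both libraries and Col4a4 had 0.01 FPKM with PBS only.

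Other classes held at most 2 expressed chains each. Col8a1, a chain of the hexagonal network collagens, had 49.7 FPKM with PBS and 49.6 with oxalate, whereas its partner Col8a2 was listed at 0 and at 0.07. Col18a1, the basement membrane collagen from which endostatin is cut, had 30.9 and 31.7 FPKM. The fibril-associated Col16a1 had 16.25 and 17.0 FPKM. Col7a1, which forms the anchoring fibrils below epithelia, had 13.1 and 13.2. Col12a1, which binds to the surface of type I fibrils, had 1.55 FPKM with PBS and 2.04 with oxalate. None of the 6 type VI chains and none of the 4 transmembrane collagens reached 1 FPKM in either library. Among the lysyl oxidases, Loxl4 (ENSMUSG00000025185, chromosome 19, 42593982 to 42612813) stood alone, with 123 and 133 FPKM. Loxl3 had 0.4 and 0.25, Loxl1 had 0.36 and 0.31, Lox had 0.11 and 0.14, and Loxl2 was listed at 0 in both. Loxl4 exceeded Loxl3, the next in order with PBS, 307-fold in that library.

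The order of these levels depended on the transcript length behind each FPKM. Low FPKM values moved in steps of 1 read, from which the depth was estimated at 56700000 reads for PBS and 36500000 for oxalate. In genes with 2 or more coding transcripts, 97.5% of 40 low values with PBS and 95.1% of 143 with oxalate fell within 0.2 of a whole read when the mean length of the coding transcripts was used. With the longest coding transcript the shares were 55.6% of 18 and 43.5% of 62. Reads computed with the mean length summed to 55900000 and 35900000, close to the estimated depths, and with the longest transcript to 81100000 and 52200000. Where an annotation holds short coding fragments, the mean length is below that of the full transcript and FPKM is higher by the same factor. Col4a1 has 3 annotated coding transcripts with a mean of 2777 bases, although the longest has 6615, and Col4a2 has 1 of 6450 bases. Rescaled to the longest coding transcript, Col4a1 had 87.6 and Col4a2 71.6 with PBS, and the ratio of these chains changed from 2.91 to 1.22 (with oxalate, from 2.83 to 1.19). Col1a1, with 1 coding transcript, stayed at 143 and moved to the place below Fn1, which had 322. Loxl4 came to 75.6 on this scale. The gap between Col1a1 and Col1a2 widened to 281-fold with PBS and 756-fold with oxalate, the latter again imprecise.

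**Figure D2:**
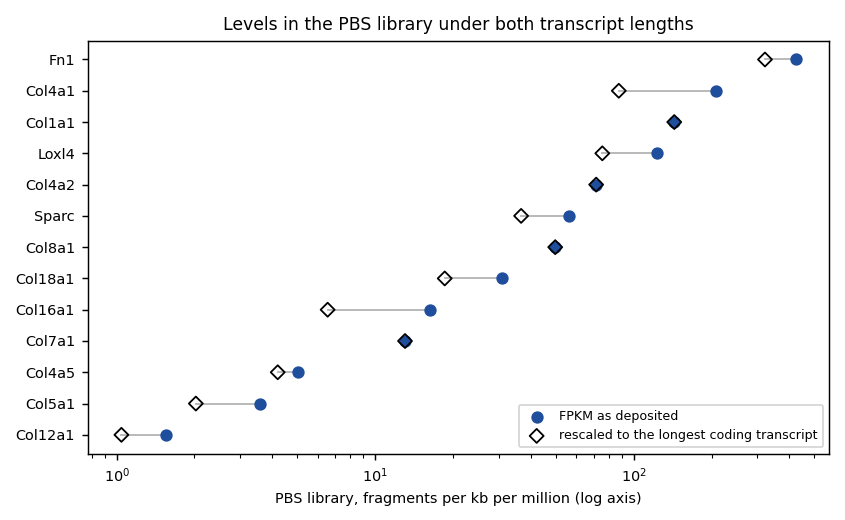
PBS levels of the 13 matrix genes that averaged 1 FPKM or more (log axis), as deposited (filled points) and rescaled to the longest coding transcript (diamonds). Col4a1 moved from 209 to 87.6 and Col1a1, with 1 coding transcript, stayed at 143.

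Between the libraries no expressed matrix gene differed 1.5-fold. With a pseudocount of 1, the difference is log2((oxalate + 1)/(PBS + 1)). On this log2(value + pseudocount) scale the differences of low genes are shrunk. Of the 13 matrix genes with a mean of 1 FPKM or more, none was raised or lowered 1.5-fold. Of the 10267 genes with that mean, 0.935% were raised and 1.05% lowered 1.5-fold, so that a count of 0 in 13 genes is near the background and is no result about the matrix genes. At 2-fold these shares were 0.292% and 0.36%, and again none of the 13 was past the threshold. The 13 ran from -0.20 for Col4a5 to 0.25 for Col12a1, inside the central 90% of all genes, which ran from -0.27 to 0.26. Their median was 0.037, against 0.0031 over all genes with that mean. With oxalate 11 were higher and 2 lower (Col4a5 and Col8a1), against 50.6% of all genes higher. Of the 11, Col1a1, Sparc, Col18a1, Col16a1, Col7a1 and Col5a1 had counting intervals, described below, that included 0. The count of directions is no result about the matrix genes.

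Counting error alone was small for the genes with most reads. It is given for the log2 ratio without a pseudocount, which for low genes lies further from 0 than the differences above. The interval of the log2 ratio of estimated reads (95%, exact, Clopper-Pearson) lay above 0 for 5 of the 13 and below 0 for 1. The share over all genes with a mean of at least 1 FPKM was not computed, so these counts are no result about the matrix genes. The interval covers counting error in these libraries only and says nothing of the spread between cultures. For Fn1, with an estimated 151804 reads with PBS and 111119 with oxalate, the interval ran from 0.18 to 0.20 around a log2 ratio of 0.19. For Col4a2 it ran from 0.12 to 0.17, for Col4a1 from 0.082 to 0.13, for Loxl4 from 0.078 to 0.15 and for Col12a1 from 0.24 to 0.56. The log2 ratio of Col12a1 without a pseudocount was 0.40. For Col4a5 the interval ran from -0.37 to -0.12. For Col1a1 it ran from -0.0093 to 0.032, so that no difference was detectable for this chain at a depth of 48261 and 31274 reads.

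The larger differences lay among the matrix genes of low level. Of the 52 genes, 11 had a mean between 0.1 and 1 FPKM, and a pseudocount of 0.01 was used for them, a choice made once the values were known. Of these, 9 (81.8%) were lower and 2 higher with oxalate, compared with 46.7% of all genes of the band lower. At least 2-fold lower were 5 (45.5%), among them Col6a1, Col6a2 and Col6a3, which are chains of the same collagen. In this band 10.5% of 1599 genes were lowered 2-fold and 10% raised 2-fold. The median of the 11 was -0.66, against 0.043 over all genes of the band. The counting interval lay below 0 for 7 of the 11 (63.6%), compared with 13.2% of 1595 genes of the band, and above 0 for none of them, compared with 14%. An interval narrows with more reads, and the genes of the band were not matched to the 11 on transcript length or reads. With 11 genes these shares are coarse, and the matrix genes are not called different from the band.

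The largest ratios of this band were those of the type VI chains Col6a2 and Col6a3. Col6a1 (chromosome 10, 76708792 to 76726168) had 0.65 FPKM with PBS and 0.27 with oxalate, an estimated 151 and 40 reads, 2.41-fold lower. Col6a2 (chromosome 10, 76595762 to 76623630) had 0.24 and 0.03 FPKM, 59 and 5 reads, with an interval of the log2 ratio from -4.60 to -1.62. Col6a3 (chromosome 1, 90765923 to 90843971) had 0.29 and 0.05 FPKM, 109 and 12 reads, with an interval from -3.54 to -1.68. All 3 chains that make up common type VI collagen were thus lower with oxalate, and Col6a4, Col6a5 and Col6a6 were listed at 0 in both libraries. Because values are rounded to 2 decimals, the read numbers of the oxalate library are coarse at this level.

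The other genes whose interval lay below 0 were 2 fibrillar chains, a multiplexin and a lysyl oxidase. Col1a2 went from an estimated 155 to 37 reads, with an interval of the log2 ratio from -1.99 to -0.90. Col11a2, a minor fibrillar chain known from cartilage, had 0.34 and 0.12 FPKM, 103 and 23 reads, with an interval from -2.25 to -0.86. Col15a1, a collagen of the basement membrane zone, had 0.74 and 0.51 FPKM and an interval from -1.04 to -0.048. Loxl3 had an interval from -1.27 to -0.058. For Col3a1, Loxl1, Tnc and Lox the interval included 0, and no difference was detectable at this depth. Tnc, with 133 and 92 reads, had a log2 ratio of 0.11 and an interval from -0.29 to 0.50. Col1a1 and Col1a2 thus stood apart between the libraries as well as in level: the abundant chain had a log2 ratio of 0.011 and the rare one of -1.42.

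**Figure D3:**
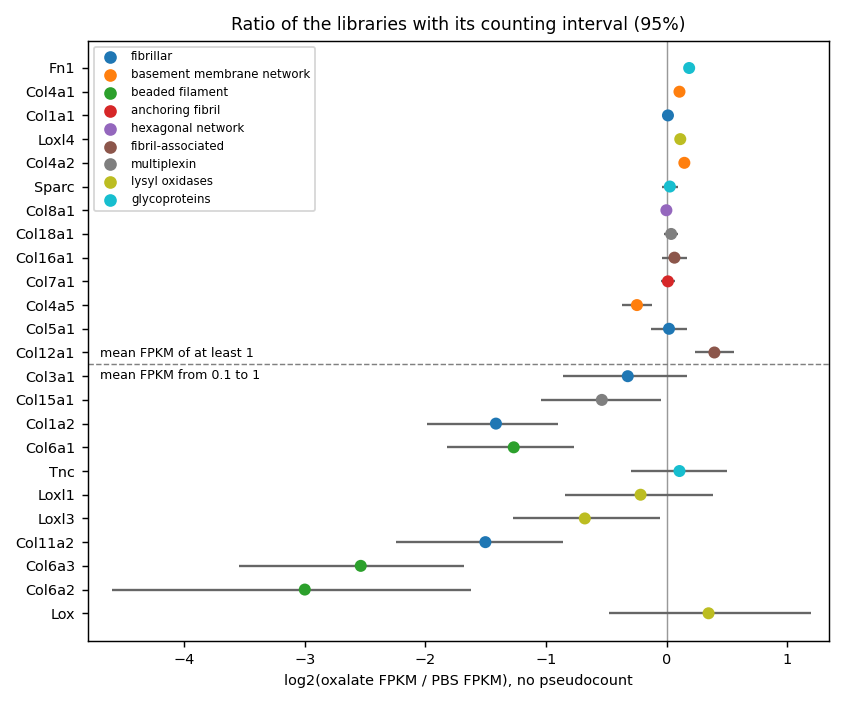
log2 ratio of oxalate to PBS FPKM with no pseudocount (points, coloured by class) and its 95% counting interval (bars) for the 24 matrix genes with a mean of at least 0.1 FPKM, 1 library per condition. Genes above the dashed line lie between -0.25 and 0.40, and Col6a2, Col6a3, Col11a2, Col1a2 and Col6a1 lie below -1.

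**Figure D4:**
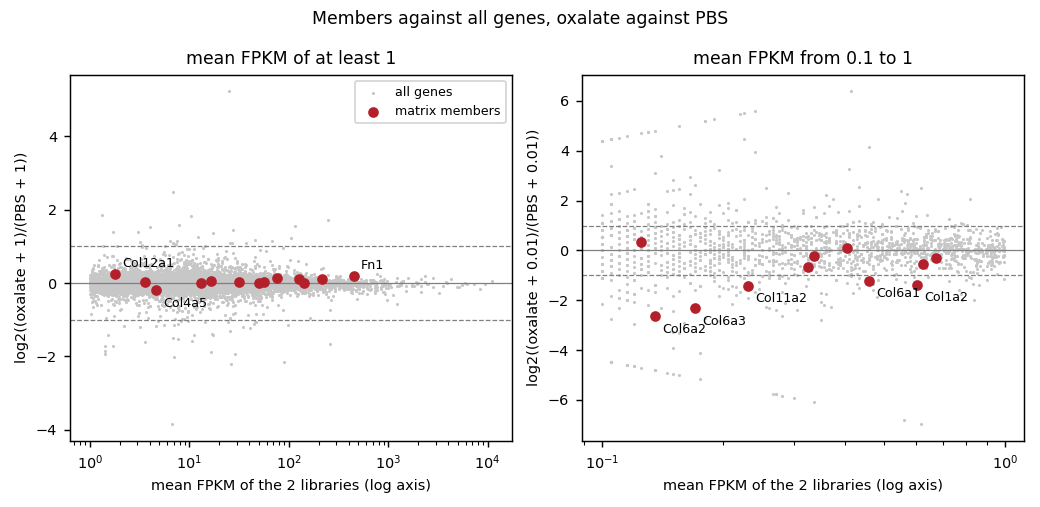
Difference between the libraries against mean FPKM (log axis) for matrix genes (red) and all genes (grey), with a pseudocount of 1 for means of at least 1 (left) and of 0.01 for means from 0.1 to 1 (right), where dashed lines mark 2-fold. On the left all 13 matrix genes lie near 0, and on the right 5 of 11 lie below the lower line.

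Col1a2 and the type VI chains are genes that fibroblasts express strongly, and the values of fibroblast markers are set beside them here. Among the other fibrillar chains averaging at least 0.1 FPKM, the counting interval lay below 0 for Col11a2. It included 0 for Col1a1, Col3a1 and Col5a1. In bulk RNA, fewer cells of a type and less RNA per cell cannot be told apart. The whole fibroblast list summed to 537 FPKM with PBS and 479 with oxalate, nearly all of it S100a4, whose log2 ratio had a counting interval from -0.21 to -0.13. Of the sum without S100a4 most was Pdgfra. Dcn was at 0.31 and 0.33 FPKM, Pdgfrb at 0.02 and 0.03, and Acta2 at 0.35 and 0.17. The interval for Acta2 ran from -2.27 to 0.12. The part of such cells in the low collagen values was not tested.

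The low band was also read in 5 lists of genes that fold, process, accompany, degrade or bind collagen, all 84 genes counted. Of these, 13 had a mean between 0.1 and 1 FPKM, 7 lower and 6 higher with oxalate, where 46.7% of all genes of the band were lower. The counting interval lay below 0 for 4 (Bgn, Nid1, Mmp2 and Mmp15) and above 0 for 1 (Adamts14), named after their values were seen. The 4 are 30.8% of the 13, compared with 13.2% of 1595 genes of the band below 0 and 14% above 0. With 13 genes these shares are coarse, and the lists are not called different from the band. Bgn (biglycan, a small matrix proteoglycan) had 1.16 FPKM with PBS and 0.38 with oxalate, with an interval from -2.23 to -0.99. Mmp2 (a gelatinase) had 0.59 and 0.12 FPKM, with an interval from -3.61 to -1.27. Nid1 (nidogen 1, a basement membrane linker) had 0.17 and 0.08, and the membrane-bound protease Mmp15 0.46 and 0.29. Tgfbi had 0.18 and 0.23 FPKM, with an interval from -0.51 to 1.20 that includes 0. Postn (periostin), with a mean above 1, had 1.25 and 1.14 FPKM and an interval from -0.49 to 0.22. Below the band, Fbn1 (fibrillin 1) had 0.03 and 0.07 FPKM, an estimated 19 and 28 reads, with an interval from 0.30 to 2.12.

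Below a mean of 0.1 FPKM were 28 of the 52 genes. Of these, 16 were listed at 0 in both libraries: Col2a1, Col24a1, Col4a3, Col6a4, Col6a5, Col6a6, Col9a1, Col9a2, Col10a1, Col13a1, Col19a1, Col22a1, Col25a1, Col26a1, Col28a1 and Loxl2. At the estimated depth 3 reads in these genes correspond to between 0.0061 and 0.021 FPKM with PBS and between 0.0095 and 0.033 with oxalate. That is the level that a count of 0 still allows. In long genes single reads also round to 0 at 2 decimals, so a listed 0 allows somewhat more there. The other 12 had at most 0.11 FPKM and at most 22 estimated reads in a library. Col17a1, the hemidesmosome collagen of epithelia, had 0.05 FPKM with PBS and 0.11 with oxalate (16 and 22 reads). Col14a1, Col23a1, Col27a1, Col4a4 and Col5a3 were above 0 with PBS only, and Col8a2 with oxalate only (6 reads).

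The genes that fold and modify collagen were mostly expressed, whereas those that process and degrade it were near the share of all genes listed, of which 46.9% had a mean of at least 1 FPKM. Of 19 genes for folding and modification, 16 (84.2%) had that mean, 12 of them higher and 4 lower with oxalate, none past 1.5-fold, with a median of 0.060. P4hb, a subunit of prolyl 4-hydroxylase, had 310 FPKM with PBS and 318 with oxalate. Ppib, a prolyl isomerase of the endoplasmic reticulum, had 215 and 230, and Colgalt1, which adds galactose to hydroxylysine, had 94.9 and 99.1. The collagen chaperone Serpinh1 had 66.4 and 70.9 FPKM. Of 9 genes for procollagen processing, 4 (44.4%) passed the filter, with 2 higher and 2 lower and a median of 0.013. Pcolce, an enhancer of propeptide removal, had 143 and 140.1 FPKM, Furin had 66.05 and 74.3, and the protease Bmp1 had 57.8 and 60.2. Of the proteases that cut the amino end of procollagens, Adamts2 and Adamts3 were listed at 0 in both libraries, and Adamts14 had 0.36 and 0.5 FPKM, an estimated 90 and 81 reads, with an interval of the log2 ratio from 0.034 to 0.93.

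Of 27 other matrix proteins, 11 (40.7%) passed the filter, 9 higher and 2 lower, with a median of 0.048. Spp1 (osteopontin) had 384 and 404 FPKM, Thbs1 (thrombospondin 1) 304 and 346, and Fbln2 (fibulin 2) 251 and 256. Of 22 genes of matrix degradation, 10 (45.5%) passed, 3 higher and 7 lower, with a median of -0.040. The protease inhibitor Timp2 had 385 and 413 FPKM, Mmp9 had 147 and 133, and Mmp14 had 118.6 and 118.5. Of 7 collagen receptors, 4 (57.1%) passed, with 2 higher and 2 lower and a median of -0.014. Itgb1 had 376 and 363 FPKM, Itga2 62.4 and 56.4, and Ddr1 41.4 and 42.15. No gene of these 5 lists with a mean of at least 1 FPKM was raised or lowered 1.5-fold. Their directions and medians describe 2 libraries, and none of the lists is called different from the rest of the genes.

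**Figure D5:**
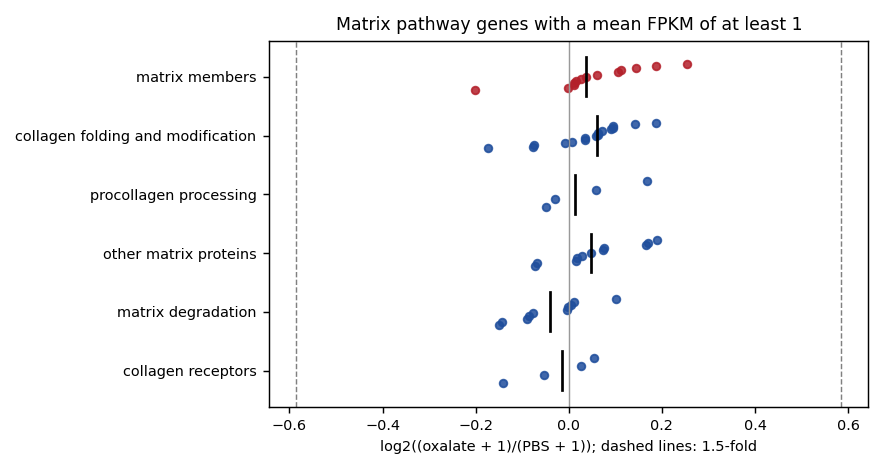
log2((oxalate + 1)/(PBS + 1)) of the genes with a mean of at least 1 FPKM in the matrix group (red) and in 5 matrix pathway lists (blue), with each median as a black line; points are staggered in height to separate them. All points lie inside the dashed 1.5-fold lines, with medians from -0.040 to 0.060.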

How the data were processed

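For 1 PBS and 1 oxalate library of oligo(dT)-selected, randomly primed cDNA, the authors deposited FPKM of 21911 genes with 2 decimals. Bowtie2 2.2.8 and TopHat2 2.1.1 are named in the submitters' processing notes. The quantification tool, genome build and annotation are not given in the sources used here. Ensembl identifiers were matched to GENCODE M21 (GRCm38), in which 21848 were found and 63 were not, and coordinates are from that annotation.

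The depth was estimated from the steps of low FPKM values in genes with 1 transcript shorter than 0.8 kb (91 and 87 values), of which 98.9% and 100% lay within 0.2 of a whole read. In 1 kb of transcript 1 read is worth 0.0176 FPKM with PBS and 0.0274 with oxalate. Reads are FPKM times mean coding transcript length in kb, divided by this value of 1 read. The exact (Clopper-Pearson) 95% intervals are those of the log2 ratio between the libraries and cover counting error only. Differences used a pseudocount of 1 over genes with a mean of at least 1 FPKM. With 1 library per condition no test was run. The alternatives were pseudocounts of 0.1 and 0.01, no filter, a mean of at least 5, and a rescaled oxalate library. The scripts were tested on simulated data. A planned comparison of protein features was not run, and coding sequence was used instead.

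Every member with at least 1 FPKM in either library or changed 1.5-fold, the 3 highest genes and any gene changed 1.5-fold of each pathway list, and markers of at least 1 FPKM were to be named. A marker gene of the lists is not reported here. The members and lists were chosen with earlier results of these data known. Low members and low or further list genes were named after their values were seen. Scripts ran in Python 3.11.15 with scipy 1.17.1, matplotlib 3.10.9, pandas 2.3.3 and numpy 2.4.6.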

Additional observations from a re-analysis of the deposited data

How the results depend on the processing

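No paired analysis was possible because PBS and oxalate were sequenced once each, and no replicate could be left out. The 0 matrix genes past 1.5-fold and the 0 past 2-fold stayed at 0 with a pseudocount of 0.1 or 0.01, without a filter, with a mean of 5 FPKM or more and after rescaling, and became 6 and 5 when a pseudocount of 0.01 was joined with a mean of at least 0.1 FPKM, a choice made once the values were known. The cause lies in its construction, since it admits 11 lower genes and no longer shrinks them. The median of 0.037 stayed between 0 and 0.049. At 0.5 FPKM 17 genes were expressed with PBS and 15 with oxalate, and at 5 FPKM 11 and 10. Of 72 values of 24 named genes, 9 moved from their value with a pseudocount of 1 by more than 0.5 times the width of their counting interval, all among Col1a2, Col6a1, Col6a2, Col6a3 and Col11a2 with a smaller pseudocount, and 0 changed sign. Rescaling divided the oxalate library by 1.002. Depth limits the low genes, where Col6a2 rests on 59 and 5 estimated reads.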

Other observations

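4T1 cells also carried transcripts of the mesenchymal state beside the epithelial ones. Of 7 genes listed for that state, 5 had a mean of at least 1 FPKM, 2 of them higher and 3 lower with oxalate and none past 1.5-fold. Vim, the intermediate filament of mesenchymal cells, had 74.6 FPKM with PBS and 75.3 with oxalate. The transcription factor Snai1 had 19.99 and 19.69 FPKM, Zeb2 had 8.49 and 9.01, Twist1 had 5.35 and 4.77, and Zeb1 had 1.82 and 1.57. Cdh2, the neural cadherin, had 0.04 FPKM in the PBS library and 0 in the other, and Snai2 had 0.02 and 0.03.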
